A study of Mus musculus with 18 samples.

Results

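The genes described here are those of Kupffer cells, the resident macrophages of the liver, and of macrophages in general. They were chosen by name from a list of 36 symbols covering surface receptors, complement, signalling adaptors, transcription factors, pattern recognition, lysosome and lipid mediators. The raw count table held 35 of them among its 20105 genes, and Msr1 was not analysed here. Nuclear RNA was sequenced from liver of 6 HEP-INTACT mice, all female, whose hepatocytes bear a tag on the nucleus by which immunoprecipitation (IP) draws them out of a nuclear suspension. The sources used here give neither the promoter that drives the tag nor the age of the mice. In the fasted mice (n = 3) food was withdrawn for 16 h from zeitgeber time 12, the onset of the active phase, and the fed mice (n = 3) ate ad libitum and were killed at the same clock time. Each mouse gave 3 libraries, namely IP nuclei of frozen liver, IP nuclei of fresh liver, and the supernatant nuclei left after the IP of fresh liver, so 18 libraries formed 6 groups of 3.

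Kupffer cells sit in the liver sinusoids and clear bacteria, dead cells and haemoglobin from portal blood. Growth and survival of macrophages run through the receptor Csf1r, and their identity rests on the transcription factor PU.1, encoded by Spi1. PU.1 recognises a short purine-rich element shared with other factors of the ETS family. Most of these genes are not typical of hepatocytes, and the supernatant is the fraction that holds nuclei of other cell types. Levels are CPM, counts scaled to a common library size with TMM over all 18 libraries, and fold changes are log2 values of fasted over fed unless another contrast is named.

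Total counts ran from 41178186 to 43814180 in frozen IP of fasted mice and from 13828945 to 49027343 in that of fed mice. They were 33242961 to 54434263 in fresh IP of fasted mice and 25675086 to 54166985 in that of fed mice, and 34247281 to 37188834 in supernatant of fasted mice and 28315372 to 34770217 in that of fed mice. Hepatocyte markers (22 genes) summed to 24940 to 33230 CPM in fresh IP of fasted mice, against 1081 to 1755 CPM in their supernatant. The supernatant of fed mice held 644 to 1150 CPM of the same markers, so hepatocyte RNA was present in this fraction and its summed level was higher in 2 of 3 fasted libraries than in any fed library. The libraries of fed mouse B (letters are those of the table's columns) stood apart. Fed library B also had the lowest total counts of its group in both IP fractions, 13828945 in frozen and 25675086 in fresh IP. The cause was not tested. In the sample titles, the leading number of a frozen IP library of fed mice lies outside the run of all the others. Which column letter that library has is not given, and its part in these values was not tested. The summed level of the 35 macrophage genes in frozen IP was 168 CPM in fed library B, against 57.1 and 66.7 CPM in the other fed libraries, and in fresh IP it was 33.7 CPM, against 17.9 and 22.4 CPM. In supernatant, fed library B was the highest of 6 for 17 of the 35 genes. Counts of calls and residues that moved most without these libraries are also given without them.

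The supernatant held the macrophage genes at a summed 7100 to 9146 CPM in fasted and 8604 to 11420 CPM in fed mice. Per kilobase of gene, introns included, Clec4f, a lectin found on Kupffer cells, had the highest level, at 90.0 CPM per kb in fasted and 85.8 CPM per kb in fed mice. Lilrb4a, an inhibitory receptor, had 55.6 CPM per kb in fasted and 58.9 CPM per kb in fed mice, and Cd5l, a secreted protein of tissue macrophages, had 26.5 CPM per kb in fasted and 59.1 CPM per kb in fed mice. The lowest level was that of Cx3cr1, the fractalkine receptor, at 0.116 CPM per kb in fasted and 0.250 CPM per kb in fed mice. All 35 genes passed the filter on low counts in this fraction.

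The promoters of 5 genes are shown because the account turns on them. Pla2g7, Cd163, Itgam and Folr2 had the largest fold changes with fasting among the called genes other than Cd14, and Vsig4, a Kupffer cell complement receptor, did not pass the test. Each covers 250 bases before to 50 bases after the transcription start, from RefSeq on GRCm38.p6 (mm10), printed 5′ to 3′ on the gene's strand. Capitals mark the purine-rich string GAGGAA or its reverse complement TTCCTC. The shorter string GGAA was not searched for and is left in lower case where it stands alone. The windows are chr17:43568201-43568500 on the plus strand for Pla2g7, chr6:124304401-124304700 on the plus strand for Cd163, chr7:128062390-128062689 on the plus strand for Itgam, chr7:101857141-101857440 on the minus strand for Folr2, and chrX:96293389-96293688 on the minus strand for Vsig4.
Pla2g7: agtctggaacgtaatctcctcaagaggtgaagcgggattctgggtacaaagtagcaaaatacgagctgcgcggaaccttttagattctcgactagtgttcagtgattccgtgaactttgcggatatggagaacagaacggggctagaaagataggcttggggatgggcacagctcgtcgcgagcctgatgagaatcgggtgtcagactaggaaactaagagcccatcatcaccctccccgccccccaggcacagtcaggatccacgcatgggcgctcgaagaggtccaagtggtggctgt
Cd163: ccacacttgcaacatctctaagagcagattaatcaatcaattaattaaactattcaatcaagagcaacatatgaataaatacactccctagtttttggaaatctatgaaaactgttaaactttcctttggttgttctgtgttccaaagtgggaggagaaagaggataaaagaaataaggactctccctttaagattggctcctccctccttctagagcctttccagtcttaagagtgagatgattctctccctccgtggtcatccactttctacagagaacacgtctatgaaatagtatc
Itgam: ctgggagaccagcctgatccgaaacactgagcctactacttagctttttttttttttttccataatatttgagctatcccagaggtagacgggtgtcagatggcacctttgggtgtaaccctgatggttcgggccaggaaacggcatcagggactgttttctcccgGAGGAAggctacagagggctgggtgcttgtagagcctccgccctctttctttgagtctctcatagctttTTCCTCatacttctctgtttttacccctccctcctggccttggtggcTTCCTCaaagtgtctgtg
Folr2: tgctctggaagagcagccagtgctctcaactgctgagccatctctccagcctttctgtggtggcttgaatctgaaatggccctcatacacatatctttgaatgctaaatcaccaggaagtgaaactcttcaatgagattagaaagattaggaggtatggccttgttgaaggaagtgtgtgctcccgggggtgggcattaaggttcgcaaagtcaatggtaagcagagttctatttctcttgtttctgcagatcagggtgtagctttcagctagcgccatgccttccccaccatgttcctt
Vsig4: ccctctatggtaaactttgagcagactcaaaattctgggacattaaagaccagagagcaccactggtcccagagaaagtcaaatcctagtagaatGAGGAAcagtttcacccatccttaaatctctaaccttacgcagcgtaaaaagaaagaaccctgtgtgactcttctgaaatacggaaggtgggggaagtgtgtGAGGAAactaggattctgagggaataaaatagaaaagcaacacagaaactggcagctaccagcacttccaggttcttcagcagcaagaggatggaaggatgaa

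Itgam held 3 matches to GAGGAA and Vsig4 held 2, while the windows of Pla2g7, Cd163 and Folr2 held 0. The set of RefSeq promoters used here covered 25 of the 35 genes. Of these, 12 (48%) held GAGGAA on either strand, against 28.3% of all 32817 mouse promoters of the same length. The AP-1 element TGANTCA stood in 2 of 25 (8%), against 7.81% of all promoters, and the C/EBP element TTGCNNAA in 3 of 25 (12%), against 10.8%. The palindromic element of the glucocorticoid receptor stood in 0 of 25, against 0.475% of all promoters. A match is a string of letters in the window and no evidence of binding.

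In the supernatant, fasting raised 5 of the 35 genes and lowered 2. Pla2g7, Nlrc4, Itgam, Cd163 and Cd14 rose, Folr2 and Lcp2 fell, and 28 did not pass the test (edgeR's quasi-likelihood test, Benjamini-Hochberg adjusted p under 0.05). The called share was 20%, against 6.22% of all 13921 genes tested, of which 3.38% were higher and 2.84% lower. The genes were chosen with earlier results of these data known, so this share and those below are descriptions and no test of the list. The median log2 fold change over the 35 genes was -0.21, against 0.00 over all genes tested. In these bulk samples, fewer nuclei of a cell type and less RNA per nucleus cannot be told apart. Fasted and fed libraries did not overlap for 19 genes, 7 with every fasted library above and 12 with every fasted library below, which is 54.3% against 29.1% of all genes tested. Without fed library B, 3 genes were higher and 1 was lower, where 2.24% of all genes tested were called, and the median was -0.09.

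**Figure D1:**
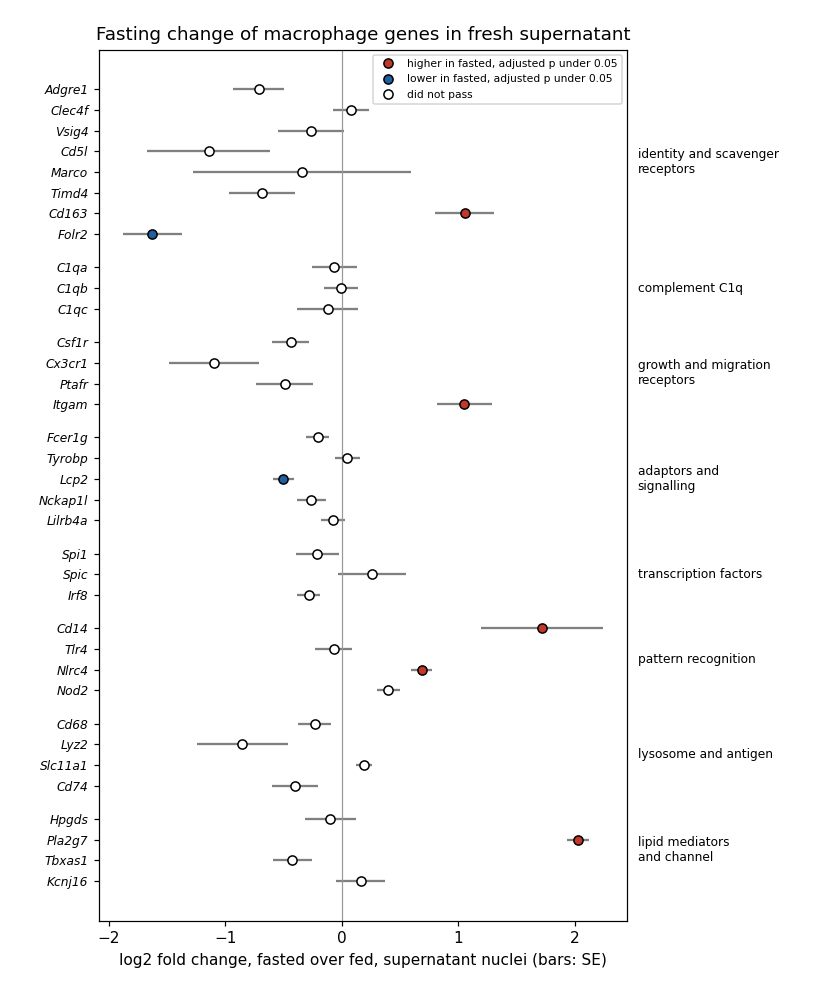
Log2 fold change of fasted over fed in supernatant nuclei (x axis) for each of the 35 genes, in groups by role, with bars for the SE of the difference (n = 3 libraries a group). Filled points are the 5 genes that rose and the 2 that fell, from Pla2g7 at 2.03 to Folr2 at -1.63.

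Pla2g7 encodes the secreted phospholipase that breaks down platelet-activating factor (PAF), and lies at chr17:43568451-43612201 on the plus strand. It had 266, 240.4 and 219 CPM in fasted supernatants, against 63.1, 59.5 and 56.3 CPM in fed ones. Every fasted library was more than 3 times as high as any fed one. The fold change was 2.03 ± 0.10 (SE; adjusted p = 0.000439), with a mean of 242 ± 23.3 CPM in fasted and 59.6 ± 3.40 CPM in fed mice (SD, n = 3 each). The call held without each library in turn, at 1.95 to 2.10. The other lipid genes did not pass. Hpgds, the haematopoietic prostaglandin D synthase, was at -0.10 ± 0.22 (adjusted p = 0.789) and Tbxas1, thromboxane synthase, at -0.43 ± 0.17 (adjusted p = 0.12). Kcnj16, an inward rectifier potassium channel, was at 0.16 ± 0.21 (adjusted p = 0.624). Ptafr, the PAF receptor, had 7.95, 8.09 and 8.37 CPM in fasted libraries, against 9.98, 9.16 and 15.4 CPM in fed ones. Its groups did not overlap, and its fold change of -0.49 ± 0.24 did not pass (adjusted p = 0.201).

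Among identity and scavenger receptors, 1 of 8 genes rose and 1 fell. Cd163, the receptor that takes up haemoglobin bound to haptoglobin (chr6:124304651-124330527, plus strand), had 947, 735 and 581 CPM in fasted libraries, against 332, 330.1 and 434 CPM in fed ones. The groups were apart, with the lowest fasted library above the highest fed one. The fold change was 1.06 ± 0.25 (adjusted p = 0.0276). It stayed at 0.85 to 1.22 when libraries were left out, and the call was lost without fed A, fed B, fasted A or fasted B, at adjusted p up to 0.0878. Folr2, the beta folate receptor of tissue macrophages (chr7:101839988-101857190, minus strand), had 14.4, 14.9 and 9.30 CPM in fasted libraries, against 34.4, 44.2 and 41.7 CPM in fed ones. All fasted values were below all fed values. Its fold change was -1.63 ± 0.25 (adjusted p = 0.00769), with no library needed for the call.

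The remaining 6 receptors of Kupffer cell identity did not pass. Adgre1, which encodes the macrophage antigen F4/80, had 769, 894 and 668 CPM in fasted libraries, against 1125, 1626 and 1105 CPM in fed ones. Its groups were apart and its fold change was -0.71 ± 0.22 (adjusted p = 0.0592). Timd4, a phosphatidylserine receptor for dead cells, was also lower in every fasted library, at -0.69 ± 0.28 (adjusted p = 0.11). Cd5l had 404, 437 and 209.6 CPM in fasted libraries, against 424, 1082 and 835 CPM in fed ones, and these overlapped (-1.14 ± 0.53, adjusted p = 0.122). Clec4f had 1133, 1144 and 847 CPM in fasted libraries, against 974, 975 and 1029 CPM in fed ones, a fold change of 0.08 ± 0.15 (adjusted p = 0.778). Vsig4 was at -0.26 ± 0.28 (adjusted p = 0.525). Of the 8 genes of this group, 6 had a fold change below 0 and 2 above 0.

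Marco, a scavenger receptor for bacteria, varied most. It had 181, 129 and 163 CPM in fasted libraries, against 116, 442 and 47.6 CPM in fed ones, where fed library B was highest. The fold change was -0.34 ± 0.94 (adjusted p = 0.812) with all libraries and 0.95 (adjusted p = 0.197) without fed library B.

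**Figure D2:**
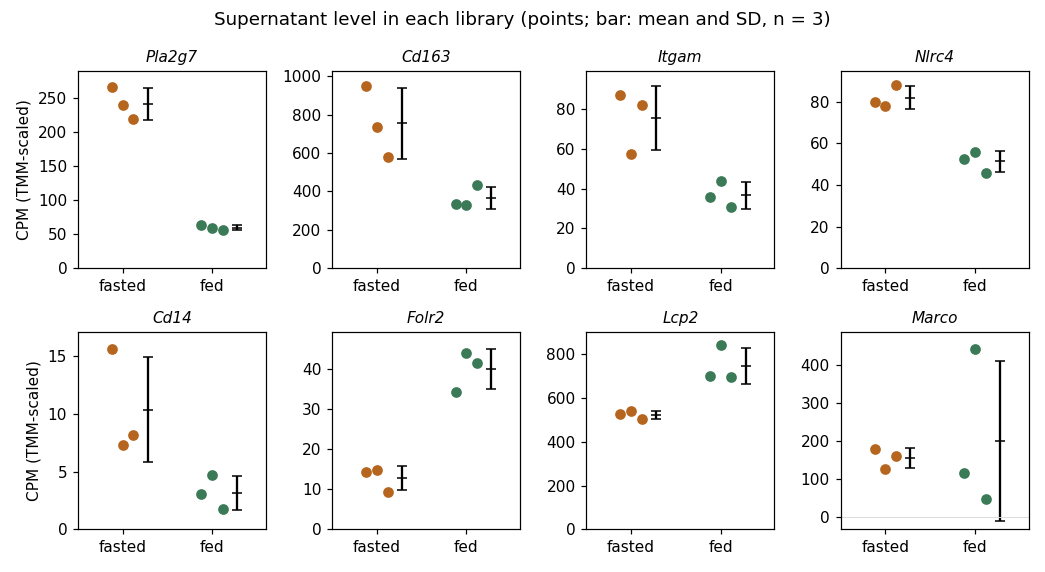
CPM in each supernatant library (points) for the 7 genes that passed and for Marco, fasted left and fed right, with the mean and SD (n = 3). Fasted and fed points are apart in the 7 genes, and the fed library of Marco at 442 CPM lies above every other.

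The complement C1q genes, which encode the chains of the recognition molecule of the classical pathway, showed no call. C1qa, C1qc and C1qb lie within 18700 bases on chromosome 4 (chr4:136880145-136898844). C1qb had 141, 123 and 118 CPM in fasted libraries, against 117, 152 and 119 CPM in fed ones. Its fold change was -0.01 ± 0.14 (adjusted p = 0.977), and it was 0.03 when libraries were scaled by total counts alone. C1qa was at -0.07 ± 0.19 and C1qc at -0.12 ± 0.26, and the groups of all 3 genes overlapped.

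Of the growth and migration receptors, Itgam rose. It encodes CD11b, the alpha chain of complement receptor 3 (chr7:128062640-128118491, plus strand), and had 87.1, 57.2 and 82.1 CPM in fasted libraries, against 35.6, 43.9 and 30.6 CPM in fed ones. The groups did not overlap. Its fold change was 1.05 ± 0.24 (adjusted p = 0.0217), and the call was lost without fed A, fed C, fasted A or fasted C, at 0.93 to 1.02 and adjusted p up to 0.0797. Csf1r, the receptor for the macrophage growth factor, had 594, 609 and 447 CPM in fasted libraries, against 716, 795 and 744 CPM in fed ones. Every fasted library was below every fed one, at -0.44 ± 0.16 (adjusted p = 0.0959). Cx3cr1 was low in all libraries, at 2.28, 2.84 and 1.67 CPM in fasted and 3.35, 4.39 and 6.98 CPM in fed mice (-1.10 ± 0.39, adjusted p = 0.0859).

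Among 5 adaptors and signalling genes, Lcp2 fell. It encodes SLP-76, a scaffold below immune receptors (chr11:34047201-34092280, plus strand), and had 527, 539 and 503 CPM in fasted libraries, against 699.9, 840.4 and 696 CPM in fed ones. The fold change was -0.50 ± 0.09 (adjusted p = 0.0306). It ranged from -0.55 to -0.42 without 1 library, and the call held only without fed A, with adjusted p up to 0.111 otherwise. Fcer1g, the gamma chain of Fc receptors, was at -0.21 ± 0.10 (adjusted p = 0.257) and Tyrobp, the adaptor DAP12, at 0.04 ± 0.11 (adjusted p = 0.848). Nckap1l, a subunit of the actin-regulating WAVE complex in blood cells, was at -0.26 ± 0.12 (adjusted p = 0.212). Lilrb4a was at -0.08 ± 0.10, and its reads may be shared with the near-identical Lilr4b, which lies 4568 bases away.

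The transcription factors did not pass. Spi1 had 177, 182 and 126 CPM in fasted libraries, against 176, 193 and 195 CPM in fed ones (-0.21 ± 0.19, adjusted p = 0.454). Spic, an ETS factor of iron-recycling macrophages, was at 0.26 ± 0.29 (adjusted p = 0.562). Irf8, an interferon regulatory factor of myeloid cells, was at -0.29 ± 0.10 (adjusted p = 0.119) with every fasted library below every fed one.

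In pattern recognition, 2 of 4 genes rose. Nlrc4, an inflammasome component that responds to bacterial flagellin (chr17:74426295-74459108, minus strand), had 79.8, 77.7 and 88.2 CPM in fasted libraries, against 52.3, 55.9 and 45.6 CPM in fed ones. The groups were apart, at 0.69 ± 0.09 (adjusted p = 0.0104), and the call held without each library in turn. Cd14, the lipopolysaccharide co-receptor, had 15.5, 7.33 and 8.17 CPM in fasted libraries, against 3.06, 4.70 and 1.74 CPM in fed ones. Its fold change was 1.72 ± 0.52 at the edge of the threshold (adjusted p = 0.0499), and the call was lost without any 1 of the 6 libraries, at 1.29 to 2.10 and adjusted p of 0.06 to 0.138. Tlr4, the lipopolysaccharide receptor, was at -0.07 ± 0.16 (adjusted p = 0.811). Nod2, a sensor of bacterial cell wall fragments, was higher in every fasted library, at 0.40 ± 0.10 (adjusted p = 0.0615).

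The lysosome and antigen genes did not pass. Lyz2, lysozyme, had 53.2, 57.7 and 43.7 CPM in fasted libraries, against 72.5, 147 and 63.1 CPM in fed ones (-0.86 ± 0.39, adjusted p = 0.142). Slc11a1, a metal transporter of phagosomes, was at 0.19 ± 0.07 (adjusted p = 0.217) and Cd74, the invariant chain of MHC class II, at -0.40 ± 0.20 (adjusted p = 0.17). Cd68, a lysosomal glycoprotein, was at -0.23 ± 0.14 (adjusted p = 0.344).

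DESeq2 on the same counts called 6 genes higher and 9 lower in fasted supernatant, where it called 13.1% of all genes tested, 6.5% higher and 6.61% lower. Nod2 was added to the higher set, at 0.39 (adjusted p = 0.0146). Adgre1, Cd5l, Timd4, Csf1r, Cx3cr1, Lyz2 and Tbxas1 were added to the lower set, at -1.16 to -0.44. Adgre1 was at -0.72 in that test (adjusted p = 0.00275).

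Lists of other genes used by macrophages are set beside the 6.22% of all genes called in supernatant. These lists too were chosen with earlier results of these data known, so their shares are descriptions. In a list of further Kupffer cell markers, 3 of 17 rose and 1 fell (23.5% called). Vcam1, an adhesion molecule, was at 245 ± 51.5 CPM in fasted and 66.8 ± 16.4 CPM in fed mice (SD, n = 3; 1.88 ± 0.28, adjusted p = 0.00696), Cd38, an ectoenzyme that consumes NAD, was at 0.77 ± 0.13, and Nr1h3, the oxysterol receptor LXR alpha, fell by 0.56. Among 16 genes of complement and phagocytosis, 5 rose and 0 fell (31.2%), with C5ar1, the receptor for the anaphylatoxin C5a, at 21.3 ± 1.62 CPM in fasted and 9.35 ± 0.344 CPM in fed mice (1.20 ± 0.07, adjusted p = 0.00271). The receptors Cd300lf (1.06 ± 0.13) and Cd300a (0.54 ± 0.12) rose with it. Of 25 genes of ITAM and Fc receptor signalling, 12% were called. Fcgr3, a low-affinity IgG receptor, rose by 0.60, while the phosphatase gene Ptpn6 fell by 0.67 and the phospholipase gene Plcg2 fell by 0.51. The 33 genes of innate sensing and cytokines were called at 6.06%, close to the share of all genes, where the chemokine gene Cxcl2 rose (3.28 ± 0.73, at 3.80 ± 2.41 CPM in fasted and 0.397 ± 0.198 CPM in fed mice) and Nod1 fell by 0.65.

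Of 19 genes of lysosome, iron and lipid handling, 2 rose and 3 fell (26.3% called). These genes are not particular to macrophages, since their summed level was 1429 to 1752 CPM in fresh IP and 3458 to 4229 CPM in supernatant of fasted mice, and 1695 to 1832 CPM in fresh IP and 3208 to 4101 CPM in supernatant of fed mice. Abca1, the cholesterol exporter, was at 1174 ± 142 CPM in fasted and 629 ± 61.9 CPM in fed mice (0.91 ± 0.14, adjusted p = 0.0105), and Plin2, a lipid droplet coat protein, was at 0.97 ± 0.06. Lpl, lipoprotein lipase, fell to 16.8 ± 1.42 CPM in fasted mice, against 120.5 ± 78.0 CPM in fed mice (-2.84 ± 0.73, adjusted p = 0.0262), Tfrc, the transferrin receptor, fell by 1.04, and Abcg1 fell by 0.55. Of 12 eicosanoid and PAF genes tested, Ptgs1, a cyclooxygenase, fell by 0.91 and Pla2g4a, the cytosolic phospholipase that frees arachidonic acid, fell by 0.66. Ciita, the master regulator of MHC class II, fell by 0.66, 1 call among 9 genes of that list. Batf3, a dendritic cell factor, fell by 1.01, and was the 1 call among 16 myeloid transcription factors, a share of 6.25% that is close to that of all genes.

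Markers of other cell types in the supernatant were measured beside these changes. Hepatocyte markers rose in 4 of 21 genes tested (Apoa1 1.72, Nr1i3 0.73, Pck1 1.81), with their summed level at 1081 to 1755 CPM in fasted and 644 to 1150 CPM in fed mice. Lymphocyte markers summed to 1173 to 1391 CPM in fasted and 1592 to 2046 CPM in fed mice, and 1 of 19 fell, Bank1 at -0.73. Bank1 made up most of these sums, at a mean of 771 CPM in fasted and 1289 CPM in fed mice. The median log2 fold change over the 19 markers was -0.12. Monocyte and dendritic cell markers summed to 396 to 419 CPM in fasted and 382 to 452 CPM in fed mice. Of these 14, 0 passed in edgeR, and Siglech had the smallest p (1.07, adjusted p = 0.06). Neutrophil and erythroid markers summed to 172 to 208 CPM in fasted and 163 to 182 CPM in fed mice, and Retnlg rose by 1.75. The globin genes Hba-a1 and Hbb-bs were at 0 counts in all 6 supernatant libraries. Whether reads of these genes could be counted was not tested, so the zeros do not show that erythroid RNA was absent. Lyve1 rose among 20 endothelial markers (2.37), Pdgfra rose (1.04) and Col3a1 fell by 1.32 among 17 stellate and fibroblast markers, and 0 of 5 cholangiocyte markers passed, Cftr having the smallest p (1.20, adjusted p = 0.15). The cholangiocyte list summed to 649.5 to 678 CPM in fresh IP of fed mice, against 14.72 to 17.65 CPM in their supernatant. It was thus not particular to cholangiocytes here, and says little about them. Immediate early genes rose in 4 of 13 (Dusp1 2.35, Fos 2.55, Fosb 0.87), and proliferation genes fell in 4 of 10 (Mcm5 -1.68, Mcm2 -1.20, Top2a -1.26). The part of these shifts in the macrophage gene changes was not tested.

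The IP of fresh liver held a small residue of the macrophage genes. All 35 were lower in IP than in supernatant, by a median log2 difference of -8.50, where 85.1% of all 14322 genes tested differed, 42% being higher and 43% lower. Some of the genes were chosen from this contrast, so it is a description. The differences ran from -9.99 for Hpgds and Kcnj16 to -3.23 for Cd68, with Fcer1g at -4.89, Ptafr at -5.56, Cx3cr1 at -5.83 and Irf8 at -5.91. As a percentage of the mean supernatant level of the same feeding state, the median residue was 0.268% (SD 0.0348 over libraries) in fasted and 0.279% (SD 0.110) in fed mice, and 30 of 35 genes in fasted and 28 in fed mice were under 1%. Without fed library B of the IP, the fed median was 0.174% and 30 genes were under 1%, and it was 0.189% when the supernatant of that mouse was left out as well. In the same libraries the median residue of endothelial markers was 1.82% in fasted and 3.98% in fed mice, that of stellate and fibroblast markers was 5.75% in fasted and 7.28% in fed mice, and that of lymphocyte markers was 0.755% in fasted and 1.31% in fed mice. Without fed library B these fed values were 4.09% for endothelial, 6.92% for stellate and fibroblast, and 0.904% for lymphocyte markers. The 16 further Kupffer cell markers with at least 1 CPM in supernatant had a median of 2.65% in fasted and 4.89% in fed mice, with single genes from 0.154% to 146.6% in fasted mice. Neutrophil and erythroid markers had a median of 0.364% in fasted and 0.357% in fed mice. Monocyte and dendritic cell markers had a median of 0.907% in fasted and 1.57% in fed mice (2.13% without fed library B of the IP).

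In the IP of frozen liver, set against the supernatant of fresh liver, the median residue was 0.838% (SD 0.127) in fasted and 0.996% (SD 0.614) in fed mice. Under 1% were 23 of 35 genes in fasted and 18 in fed mice. Without fed library B of the IP, the fed median was 0.615%, below that of fasted mice, and 23 genes were under 1%. It was 0.72% with the supernatant of that mouse left out as well. Endothelial markers were at a median of 4.27% in fasted and 9.88% in fed mice, and lymphocyte markers at 1.47% in fasted and 2.41% in fed mice (8.46% for endothelial and 1.88% for lymphocyte markers in fed mice without fed library B). The further Kupffer cell markers were at 3.57% in fasted and 5.07% in fed mice. Across the 35 genes, the log2 mean level in IP followed that in supernatant, with Pearson r = 0.864 in fasted and 0.928 in fed frozen IP, and r = 0.652 in fasted and 0.686 in fed fresh IP. Without fed library B the fed values were r = 0.859 in frozen and 0.682 in fresh IP. These are descriptions over genes that share libraries.

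**Figure D3:**
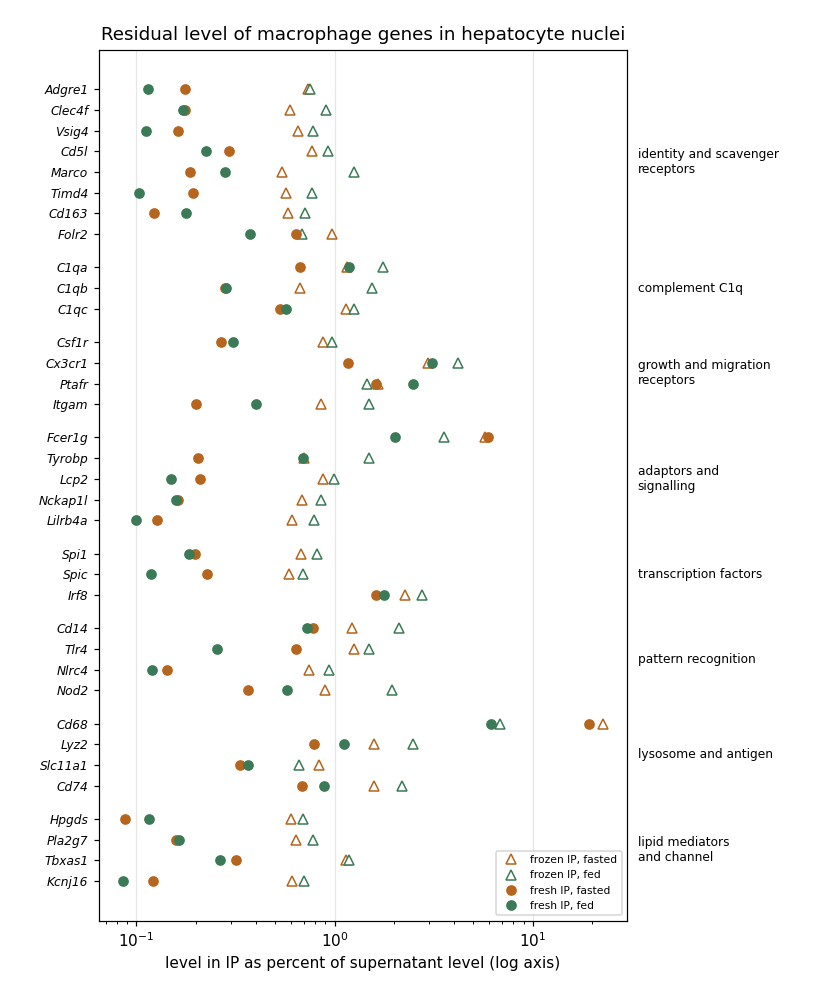
Level in IP as a percentage of the mean supernatant level (log axis) for each of the 35 genes in 4 groups, frozen IP as triangles and fresh IP as circles, fasted in orange and fed in green. Most triangles lie to the right of most circles, and Cd68 (19.2% in fresh IP of fasted mice) and Fcer1g (5.96%) lie furthest right.

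Cd68 had the largest residue in all 4 IP groups, and Fcer1g the next largest in fasted mice. Cd68 was at 22.6 ± 3.73% in frozen IP of fasted mice and 6.87 ± 1.10% in that of fed mice (SD, n = 3), and at 19.2 ± 5.31% in fresh IP of fasted and 6.17 ± 2.17% in that of fed mice. Fcer1g was at 5.96 ± 0.846% in fresh IP of fasted and 2.01 ± 0.404% in that of fed mice. In fresh IP of fed mice, Cx3cr1 (3.09 ± 2.96%) and Ptafr (2.50 ± 1.93%) were above Fcer1g, with a wide spread between libraries. Irf8 in fresh IP was at 1.62 ± 0.144% in fasted and 1.78 ± 0.788% in fed mice. At the other end, Kcnj16 was at 0.121 ± 0.0210% in fasted and 0.0856 ± 0.0122% in fed mice, and Hpgds at 0.0872 ± 0.0112% in fasted and 0.115 ± 0.0313% in fed mice. Counts behind the residue were low. Cd14 had 0 counts in fresh IP of fed mouse A, where 3 counts would be 0.0644 CPM, and Tyrobp had 0 counts in that of fasted mouse C, where 3 counts would be 0.0987 CPM.

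Fasting raised 2 of the 20 genes that passed the filter in fresh IP, and 0 fell, where 25.1% of all 12548 genes tested were called, 12.4% higher and 12.6% lower. The other 15 genes were too low to test. Cd68 (chr11:69664213-69666170, minus strand) had 3.69, 2.08 and 3.03 CPM in fasted libraries, against 1.48, 0.704 and 1.16 CPM in fed ones, from 92 to 134 counts in fasted and 16 to 69 counts in fed libraries. Its groups did not overlap, at 1.38 ± 0.38 (adjusted p = 0.0239), and the call was lost without fed B, fed C, fasted A or fasted C, at 1.16 to 1.39 and adjusted p up to 0.0929. Fcer1g (chr1:171229572-171234349, minus strand) had 2.42, 1.98 and 2.63 CPM in fasted libraries, against 1.12, 0.748 and 0.904 CPM in fed ones. The groups were apart, at 1.34 ± 0.20 (adjusted p = 0.0106), and the call held without each library in turn. At an unadjusted p under 0.05, 2 genes were higher and 0 lower, against 39.2% of all genes tested, and DESeq2 called 3 higher and 0 lower, against 27.1% of all genes.

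In frozen IP, 2 of 30 genes tested were higher after fasting and 0 were lower, where 22.6% of all 12926 genes tested were called, 11% higher and 11.6% lower. Cd68 had 3.93, 2.82 and 3.60 CPM in fasted libraries, against 1.42, 1.03 and 1.27 CPM in fed ones (1.45 ± 0.19, adjusted p = 0.00712), and its call held without each library in turn. Pla2g7 had 1.95, 1.41 and 1.26 CPM in fasted libraries, against 0.535, 0.710 and 0.151 CPM in fed ones. All fasted values lay above all fed values (1.90 ± 0.61, adjusted p = 0.0336), and the call held only without fed library B, at 2.24. With an unadjusted p under 0.05, 2 genes were higher and 1 lower, against 37.1% of all genes tested, and DESeq2 called 2 higher and 2 lower, Cd5l at -1.40 and Lyz2 at -1.48, against 26.1% of all genes. Fed library B was the highest of the 6 for 28 of 35 genes, such as Adgre1, with 5.68, 5.82 and 5.65 CPM in fasted libraries, against 4.97, 17.8 and 6.13 CPM in fed ones. Without fed library B, 3 genes were higher (Spic added, at 2.21) and 0 lower, where 17.3% of all genes were called, and the median over the genes tested was 0.07 in place of -0.48. Spic had 11 to 15 counts in fasted libraries and 2 to 3 counts in the remaining fed ones. It passed the filter through the fasted libraries, where it was higher, so its call is a description.

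In the authors' deposited table of fasting comparisons, 4 of the 35 genes were higher and 0 lower in fresh IP, namely Fcer1g, Cd68 (1.28), Pla2g7 (1.90) and Tlr4 (1.29). In the authors' deposited table for frozen IP, Cd68 (1.38) and Pla2g7 (1.94) were higher and 5 were lower, namely Cd5l (-1.48), Timd4 (-1.18), C1qb (-1.23), Lcp2 (-0.75) and Lyz2 (-1.56). The share of all genes called by the authors was not computed here, so these counts are descriptions. In fresh IP, Pla2g7 and Tlr4 were too low to test with edgeR. Counts in fed libraries of fresh IP were 2 to 6 for Pla2g7 and 3 to 5 for Tlr4.

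**Figure D4:**
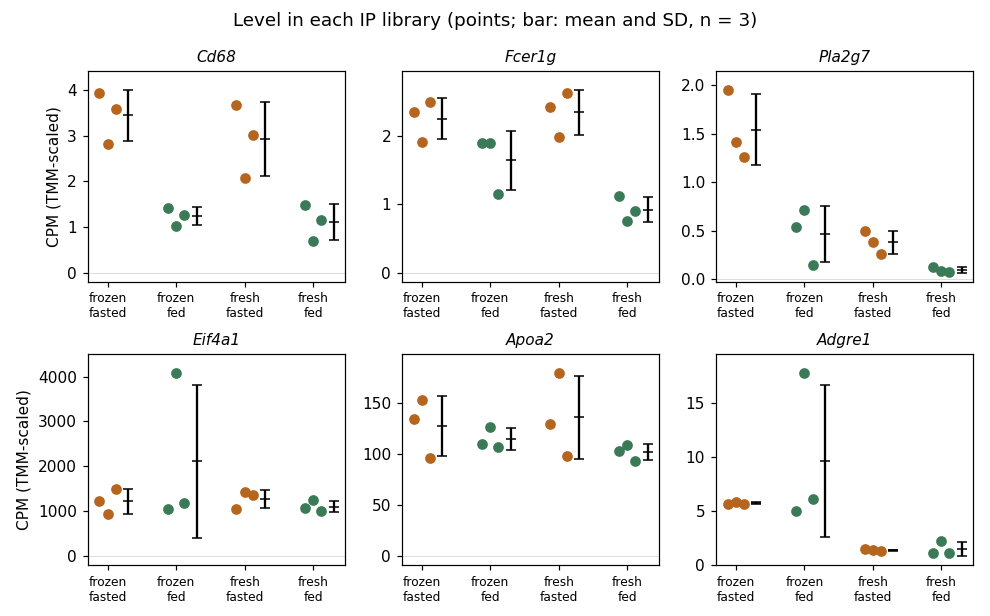
CPM in each IP library (points) for Cd68, Fcer1g, Pla2g7 and Adgre1 and for Eif4a1 and Apoa2, which lie near Cd68 and Fcer1g, with frozen left of fresh IP and fasted left of fed in each and the mean and SD (n = 3). Cd68 is at 2.08 to 3.93 CPM in fasted and 0.704 to 1.48 CPM in fed libraries, and Adgre1 and Eif4a1 are high in frozen fed library B.

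The fasting change in fresh IP differed from that in supernatant for 3 of 35 genes, where 9.54% of all genes tested did, 3.71% with a higher and 5.83% with a lower change in IP. Of these 35 genes, 15 were too low to test in fresh IP alone, Tlr4 among them. They passed the filter here through their level in supernatant, so the count says little about their change in IP. The log2 difference of the changes was 1.47 ± 0.21 for Fcer1g (adjusted p = 0.00196), 1.52 ± 0.40 for Cd68 (adjusted p = 0.0169) and 1.35 ± 0.30 for Tlr4 (adjusted p = 0.0476). The calls of Fcer1g and Cd68 held without each of the 12 libraries in turn. That of Tlr4 held only without fasted IP library C and rested on 6 to 19 counts in fasted and 3 to 5 counts in fed libraries of fresh IP. Cd68 and Fcer1g lie close to genes with far higher levels in hepatocyte nuclei. Eif4a1, a translation factor, ends 765 bases upstream of Cd68 on the same strand, and was at 1272 ± 203 CPM in fresh IP of fasted and 1100 ± 129 CPM in that of fed mice (0.23 ± 0.16, adjusted p = 0.341). Apoa2, an apolipoprotein gene 3192 bases downstream of Fcer1g on the other strand, was at 135.5 ± 40.9 CPM in fresh IP of fasted and 101.6 ± 8.08 CPM in that of fed mice, and the sources used here do not say whether counting used strand. Their part in the counts of Cd68 and Fcer1g was not tested.

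The residue was higher in frozen than in fresh IP. Of 33 genes tested, 20 were higher and 0 lower in frozen IP, where 5.16% of all 13162 genes tested were called, 4.72% higher and 0.441% lower. Only 20 of the 35 genes passed the filter in fresh IP alone. Itgam, Tlr4, Nlrc4, Nod2, Hpgds and Pla2g7 did not, and entered this test through frozen IP, where they were higher. Their calls are therefore descriptions. The median log2 difference of frozen minus fresh was 1.85. It was largest for Kcnj16, at 2.68 ± 0.23 (adjusted p = 0.000746), with 2.50 ± 0.484 CPM in frozen and 0.495 ± 0.0861 CPM in fresh IP of fasted mice (SD, n = 3). Lilrb4a (2.63 ± 0.25), Nlrc4 (2.58 ± 0.17) and Adgre1 (2.42 ± 0.33) were also higher, Nlrc4 on 1 to 7 counts in each fresh IP library. Cd68 was at 0.22 ± 0.21 (adjusted p = 0.893), Fcer1g at 0.39 ± 0.16 (adjusted p = 0.417) and Irf8 at 0.56 ± 0.22 (adjusted p = 0.249), and did not pass. Cx3cr1 was too low to test here. Ptafr was at -0.28 ± 0.62. Frozen and fresh IP came from the same mice, and a fit with the mouse as a block called 25 genes higher and 0 lower, where 16.5% of all genes were called, 9.41% higher and 7.07% lower. The 5 added genes were Marco (1.80), C1qc (1.35), Lyz2 (1.05), Slc11a1 (1.14) and Cd74 (1.28). Of these, Marco and C1qc did not pass the filter in fresh IP alone and entered through frozen IP, so their calls are descriptions too. Without both libraries of fed mouse B, 22 of 31 genes tested were higher and 0 lower, where 3.28% of all genes were called, and the median was 1.69. The fasting change itself did not differ between frozen and fresh IP for any of 33 genes in edgeR or of 35 in DESeq2 (0% of all genes in both), with 2 in edgeR at an unadjusted p under 0.05, where 0.327% of all genes were.

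**Figure D5:**
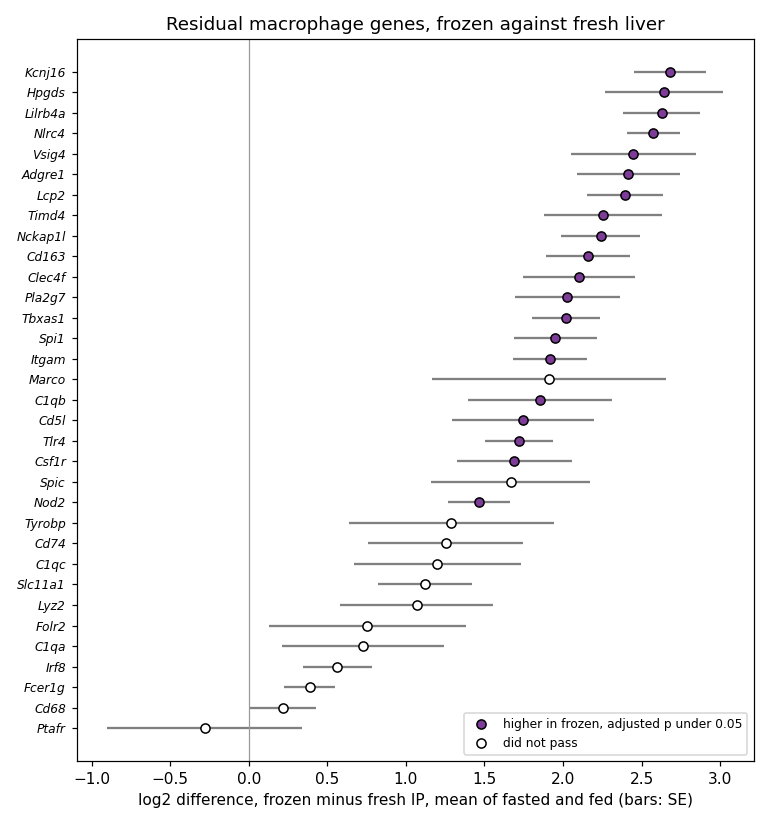
Log2 difference of frozen minus fresh IP, averaged over feeding states (x axis), for the 33 genes tested, in order of size, with bars for the SE. The 20 filled points passed, from Kcnj16 at 2.68 to Nod2 at 1.46, and Cd68, Fcer1g and Irf8 lie among the open points.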

How the data were processed

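A table of raw, whole-number counts was deposited by the authors, with the coordinates of each gene. Their second deposited table holds fasting comparisons of their own (log2 fold change, adjusted p-value) and normalized counts (signal, counts divided by 1 factor per library), of which the last were not used. Per the submitters' processing notes, STAR 2.4.2a and DESeq2 1.24.0 were used on build mm10, with no roles given. Which tool counted reads, and whether by strand, is not given in the sources used here. Per the labels' protocols, the kit kept strand and poly-A RNA was not selected, so unspliced RNA is counted, and gene lengths include introns. The 6 columns of frozen supernatant match no sample and were not used.

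Counts were tested with edgeR 4.0.16 (glmQLFit, glmQLFTest, TMM, filterByExpr) in R 4.3.3, within the groups of each comparison, with Benjamini-Hochberg adjustment over all genes tested at 0.05. The method was tested on simulated data. Fold changes are from edgeR, and each SE is computed from log2 CPM (prior count 2) as that of a difference between group means, with libraries taken as independent. Replicates are separate mice. Alternatives were DESeq2 1.42.0, total-count scaling, scaling over 4811 supernatant-enriched genes, no filter, 1 fit of all groups, a mouse block and leaving out libraries. Within a feeding state, libraries with the same column letter deviated together (r = 0.555 to 0.902 between frozen and fresh IP) and those with different letters did not (r = -0.586 to -0.108), so letters served as the block. Letters stand in no label.

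The genes and lists were chosen with earlier results of these data known. Beyond the 35 genes, those named are the genes of each list past the threshold in supernatant, at most 3 per direction, or the 1 with the smallest p. Sequences are from RefSeq. Floors (3 counts) cover counting error only, while each SD and SE covers the spread between mice.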

Additional observations from a re-analysis of the deposited data

Results flagged for a closer look

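The fasting change of 3 genes differed between the IP and the supernatant of fresh liver, by the test of the difference itself (edgeR). The log2 difference of changes was 1.47 for Fcer1g, 1.52 for Cd68 and 1.35 for Tlr4. Tlr4 was among the 15 genes too low to test for a fasting change in fresh IP alone. In fresh IP, Fcer1g was at 2.34 ± 0.333 CPM in fasted and 0.923 ± 0.185 CPM in fed mice, while in supernatant it was at 39.4 ± 3.07 CPM in fasted and 45.8 ± 4.06 CPM in fed mice (SD, n = 3 each). Cd68 in fresh IP was at 2.93 ± 0.809 CPM in fasted and 1.11 ± 0.391 CPM in fed mice, and in supernatant at 15.2 ± 1.89 CPM in fasted and 18.0 ± 1.72 CPM in fed mice. Tlr4 in fresh IP was at 0.289 ± 0.0864 CPM in fasted and 0.122 ± 0.0128 CPM in fed mice, and in supernatant at 45.3 ± 3.43 CPM in fasted and 47.9 ± 9.02 CPM in fed mice. The call for Tlr4 was lost in DESeq2 (adjusted p = 0.0563), with no filter (adjusted p = 0.0552) and in 11 of 12 fits that left out 1 library, with adjusted p up to 0.149 over these.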

How the results depend on the processing

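In supernatant, DESeq2 called 9 genes lower in place of 2, and a fit of all 6 groups called 1. Of all genes tested, 6.61% were lower in DESeq2 and 1.65% in the fit of all 6 groups, in place of 2.84%. Leaving out 1 library gave 2 to 3 higher in place of 5 and 1 to 2 lower. Calls over all genes also fell, to between 197 of 14003 and 624 of 14078, in place of 866 of 13921. In fresh IP, the fit of all 6 groups called 4 higher in place of 2 (Pla2g7 and Tlr4 added), where 14.1% of all genes were higher in place of 12.4%. Pla2g7 and Tlr4 were too low to test in fresh IP alone. They passed the filter of this fit through other groups, so their calls are descriptions. Leaving out 1 library in fresh IP gave 1 to 2 higher, where between 1429 of 12781 and 2643 of 12701 genes were called. In frozen IP, DESeq2 called 2 lower in place of 0, where 13.5% of all genes were lower in place of 11.6%. Leaving out 1 library there gave 1 to 3 higher and 0 to 1 lower, where between 1168 of 13119 and 2271 of 13103 genes were called. Scaling by total counts alone gave a median residue of 0.651% in frozen and 0.204% in fresh IP of fasted mice. C1qb in supernatant turned to 0.026 under total counts and to 0.032 under scaling over supernatant-enriched genes. Without 1 library, fold changes of genes that did not pass changed sign, over -0.17 to 0.12 for C1qa, -0.093 to 0.11 for C1qb, -0.25 to 0.12 for C1qc, -0.80 to 0.95 for Marco, -0.15 to 0.085 for Tlr4 and -0.043 to 0.13 for Tyrobp. The causes were not tested. With the replicate block by mouse, 25 genes were higher in frozen than in fresh IP, against 20 without it (16.5% of all genes called, against 5.16%). The fasting change differed between IP and supernatant for 3 genes in either fit (10.2% of all genes with the block, against 9.54%). All 35 were lower in IP than in supernatant (43.3% of all genes with the block, against 43%). Leaving out 1 library gave 18 to 22 genes higher in frozen IP, where between 409 of 13352 and 711 of 13339 genes were called. Leaving out 1 IP library gave a median residue of 0.754% to 0.865% in frozen IP of fasted, 0.615% to 1.16% in frozen IP of fed, 0.234% to 0.306% in fresh IP of fasted and 0.174% to 0.324% in fresh IP of fed mice. These residues, and the fit without both libraries of fed mouse B, were chosen after the data were seen. With 3 mice a group, and as few as 0 counts of a gene in an IP library, small changes of the residue were not detectable.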
